A study of Mus musculus with 9 samples.

Results

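Milk fat is built from glycerol and fatty acids by the enzymes of the glycerol-3-phosphate pathway, and 9 genes of that pathway were followed here across the milk fat RNA of single mice. They were taken by symbol, Gpam and Gpat4 for the acylation of glycerol 3-phosphate, Agpat1, Agpat2 and Agpat3 for the acylation of lysophosphatidate, Lpin1 and Lpin2 for the removal of phosphate from phosphatidate, and Dgat1 and Dgat2 for the last acylation. Of these 9 genes, 8 were among the 11206 genes listed in at least 1 library. Only Lpin1 was among the 1847 genes listed in all 9. Gpam was listed in 0 libraries.

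The RNA came from the fat layer of milk taken at lactation day 10 from first-litter ICR females, an outbred CD1 stock, with 1 library per dam. Control diet dams (n = 5) received 10% of energy from fat at 3.85 kcal per gram, and high fat diet dams (n = 4) received 60% at 5.24 kcal per gram, with sucrose at 7% of energy in both. Feeding began at 4 weeks of age, 4 weeks before mating, and continued through pregnancy and lactation. The labels give no genetic change and do not tie dams to the cages they shared, so dams of a diet may not be fully independent.

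In the lactating gland, triglycerides are made at the endoplasmic reticulum of the secretory epithelium, gathered into lipid droplets and released as fat globules wrapped in membrane. A globule can carry a piece of cytoplasm, so RNA of the milk fat layer samples the epithelium that secreted it. Mice without Gpat4 (formerly Agpat6) make milk with little fat, and mice without Dgat1 fail to lactate. Lpin1 and Lpin2 act as soluble enzymes that move onto membranes, and Lpin1 also acts as a transcriptional coactivator in the nucleus.

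The values are FPKM, fragments scaled to transcript length and library size, so levels of different genes can be set side by side. The tables hold only rows above 1 FPKM, and a gene with no row is called unlisted, which means at or below 1 FPKM. The bounds given with a value are those deposited by the authors and cover its counting and transcript assignment error within a library. As a bulk measure, the RNA cannot tell fewer cells of a type from less RNA per cell.

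The libraries differed in scale. Genes listed per library numbered 7098 to 8903 on the control diet, 7974 in high fat diet 1, and 5124, 2075 and 4986 in high fat diet 2, 3 and 4, while relative depth read from the bounds ran from 0.823 to 1.59 of control diet 1. Over the 1847 common genes, the median-of-ratios scale of a library was 0.519 to 1.59 of the control mean on the control diet, and 0.985, 0.567, 0.145 and 0.373 in high fat diet 1 to 4. Dividing by it gives the scaled FPKM used here. The scaled test divided by the same factors set against all 9 libraries instead, 2.33 rather than 1.59 in control diet 1, before 1 was added. With that scaling the median of the log2 fold changes over the tested genes moved from -1.08 to -0.55 (quantile normalization moved it to -0.10). Markers matched the labelled tissue, with all 8 luminal secretory genes listed in every control library and 7 or 8 in the high fat libraries. Of 8 adipocyte markers, only Fabp4 was listed, at 2.49 FPKM in control diet 5. Of 9 macrophage and neutrophil markers, 3 or 4 were listed in control libraries, at a summed 15.5 to 44.3 FPKM, and 1 to 5 in high fat libraries, at 2.33 to 126 FPKM. Myoepithelial markers summed to 4.22 to 8.22 FPKM on the control diet and to 0 to 6.06 on the high fat diet, Pecam1 was listed in control diet 5 alone at 1.10 FPKM, and 0 of 3 liver markers were listed.

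The promoters of the lipin genes are shown because these genes had the highest mean levels of the pathway on the control diet, though not in every library, and varied in different ways. Each is the stretch from 250 bases before to 50 bases after a RefSeq start site (GRCm38.p6), in lower case with motif matches in capitals. Those of Lpin1 lie at chr12:16610917-16611216 on the minus strand and those of Lpin2, at the first of its start sites, at chr17:71183282-71183581 on the plus strand.
Lpin1: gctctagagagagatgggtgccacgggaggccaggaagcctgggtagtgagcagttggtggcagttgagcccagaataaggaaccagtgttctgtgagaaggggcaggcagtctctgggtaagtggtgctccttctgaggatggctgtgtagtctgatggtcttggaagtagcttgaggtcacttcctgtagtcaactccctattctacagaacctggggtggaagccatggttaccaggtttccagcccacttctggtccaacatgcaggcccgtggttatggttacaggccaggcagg
Lpin2: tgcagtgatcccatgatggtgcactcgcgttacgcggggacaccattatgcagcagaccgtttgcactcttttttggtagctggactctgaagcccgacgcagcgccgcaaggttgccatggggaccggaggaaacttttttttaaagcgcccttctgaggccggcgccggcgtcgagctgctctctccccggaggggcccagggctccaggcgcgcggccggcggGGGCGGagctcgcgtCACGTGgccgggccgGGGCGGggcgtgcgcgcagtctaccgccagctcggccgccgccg

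The Lpin2 promoter shown held 1 E-box, CACGTG, which 7.15% of all 32851 promoters of this length hold, and 2 Sp1 boxes, GGGCGG, which 35.7% hold. The Lpin1 promoter held none of the 6 motifs searched on both strands. The others were the sterol regulatory element TCACNCCAC, in 1.24% of all promoters, the NF-Y box CCAAT in 37.4%, the direct repeat 1 element of nuclear receptors in 0.0396% and the gamma-activated site TTCNNNGAA in 8.30%. Of 9 members, 6 had a promoter in the table, with 10 start sites among them. Of the Lpin2 start sites not shown, the second held 1 Sp1 box and the third 3 NF-Y boxes, with no E-box in either. The Lpin1 and Lpin2 sequences were 55.3% and 68.7% G and C, against a median of 52.7% over all promoters. The RefSeq start of Lpin1 lies 21196 bases upstream of the 5′ edge of the Lpin1 locus in the deposited tables, so that start site was outside the gene model that was counted.

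For the first step of the pathway these libraries listed only Gpat4, the acyltransferase of the endoplasmic reticulum (chromosome 8, 23171265 to 23208346, minus strand, GRCm38). Its level was 3.50, 3.48, 3.70, 3.41 and 2.92 FPKM in control diet 1 to 5. In high fat diet 1, 2 and 4 it was 2.81, 1.79 and 4.24 FPKM, and it was unlisted in high fat diet 3. The control libraries lay close together, with an SD of 8.48% of their mean, and high fat diet 4 lay above all of them while high fat diet 1 and 2 lay below. Gpat4 did not pass the test (log2 fold change -0.69, SE 0.542, limma adjusted p = 0.250), and its sign turned positive under quantile normalization. The narrow control range belongs to FPKM as deposited. After scaling by the common genes the same libraries ran from 2.20 to 6.72, an SD of 50.2% of the mean.

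High fat diet 4 stood apart for Gpat4 on its own scale too. There 36.1% of the common genes lay below Gpat4, against 0.812% to 12.6% in the control libraries and 1.79% and 4.55% in high fat diet 1 and 2. The scaled value was 11.4 in high fat diet 4 and 2.85 and 3.15 in high fat diet 1 and 2. Gpam, the mitochondrial enzyme of this step, was at or below 1 FPKM everywhere, and the paralogs Gpat2 and Gpat3 were unlisted too.

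**Figure D1:**
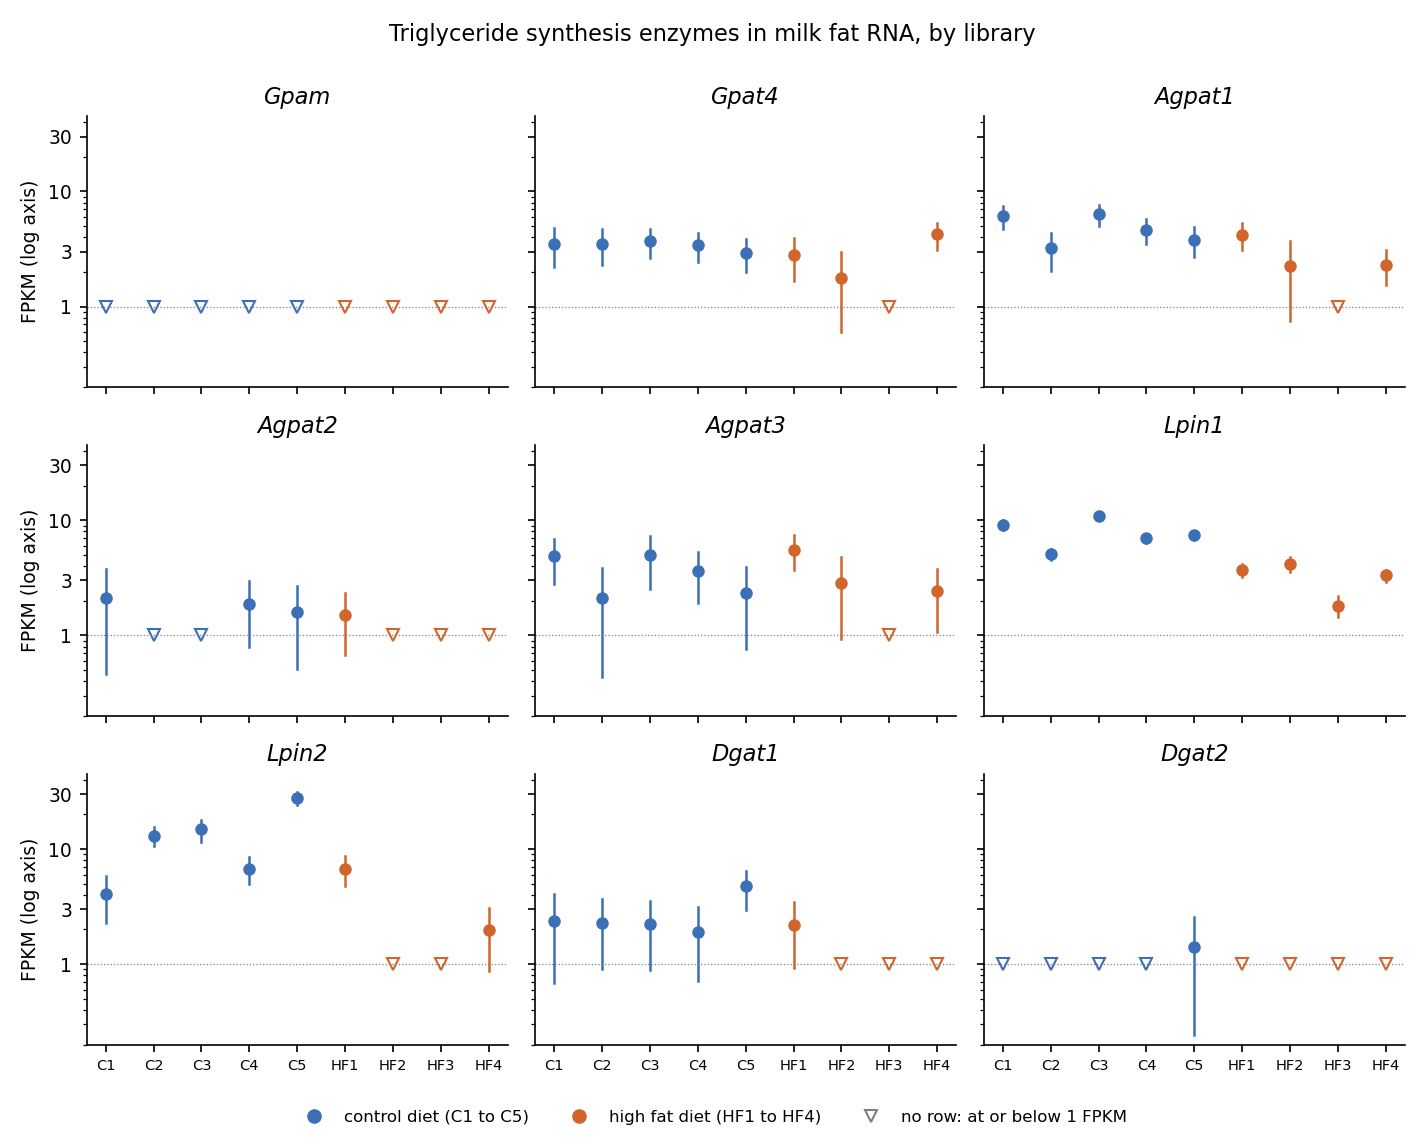
FPKM of each of the 9 genes (log axis) in control diet (C1 to C5) and high fat diet (HF1 to HF4) libraries, with the authors' lower and upper bounds as bars (cut at 0.2) and open triangles at 1 FPKM for unlisted values. Lpin1 was listed in every library and Gpam in none, and Lpin2 ranged from 4.06 to 27.6 among the control libraries.

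The second step was led by Agpat1 and Agpat3, acyltransferases that turn lysophosphatidate into phosphatidate. Agpat1 (chromosome 17, 34604262 to 34613449, plus strand) was at 6.10, 3.21, 6.35, 4.66 and 3.81 FPKM in control diet 1 to 5. It was at 4.22, 2.24 and 2.32 FPKM in high fat diet 1, 2 and 4 and unlisted in high fat diet 3. Agpat3 (chromosome 10, 78269178 to 78352489, minus strand) was at 4.84, 2.13, 4.95, 3.62 and 2.35 FPKM in the control libraries, at 5.52, 2.88 and 2.41 in high fat diet 1, 2 and 4, and unlisted in high fat diet 3. The diets overlapped in both genes, and neither passed the test. The log2 fold change was -1.06 for Agpat1 (SE 0.561, limma adjusted p = 0.115) and -0.54 for Agpat3 (SE 0.556, limma adjusted p = 0.366).

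The ratio of these enzymes did not overlap between the diets in the libraries that listed both. Agpat1 over Agpat3 was 1.26, 1.51, 1.28, 1.29 and 1.62 in control diet 1 to 5 and 0.764, 0.780 and 0.963 in high fat diet 1, 2 and 4. Agpat1 was thus the higher in 5 of 5 control libraries and Agpat3 in 3 of 3 high fat libraries that listed both. A ratio within a library does not depend on the scale of the library. It is given without a test, being picked out after the values of 9 ratios were seen, and each Agpat3 value rested on the equivalent of only 6.33 to 35.3 fragments. The bounds of Agpat1 and Agpat3 overlapped in each library that listed both. The share of gene pairs that separate in this way was not counted.

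Set against the rest of its library, Agpat3 separated by diet and Agpat1 did not. The share of common genes below Agpat3 was 0.920% to 3.41% in the control libraries and 10.9%, 13.5% and 13.4% in high fat diet 1, 2 and 4, so the listed values did not overlap, while for Agpat1 it was 2.22% to 10.3% against 5.68% to 12.0%. Scaled Agpat3 was 2.50 to 4.10 against 5.08 to 6.45, and scaled Agpat1 was 3.22 to 6.19 against 3.96 to 6.22. Of the 3748 genes listed in the same 8 libraries, 5.04% had scaled values that were all higher on the high fat diet, and 2.43% all higher on the control diet. In high fat diet 3 the scale of the library placed the control median of Agpat3 at 0.498 FPKM, below what a table can list. With that library counted as 0, the scaled log2 fold change of Agpat3 was -0.01 (SE 0.503, limma adjusted p = 0.989).

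**Figure D2:**
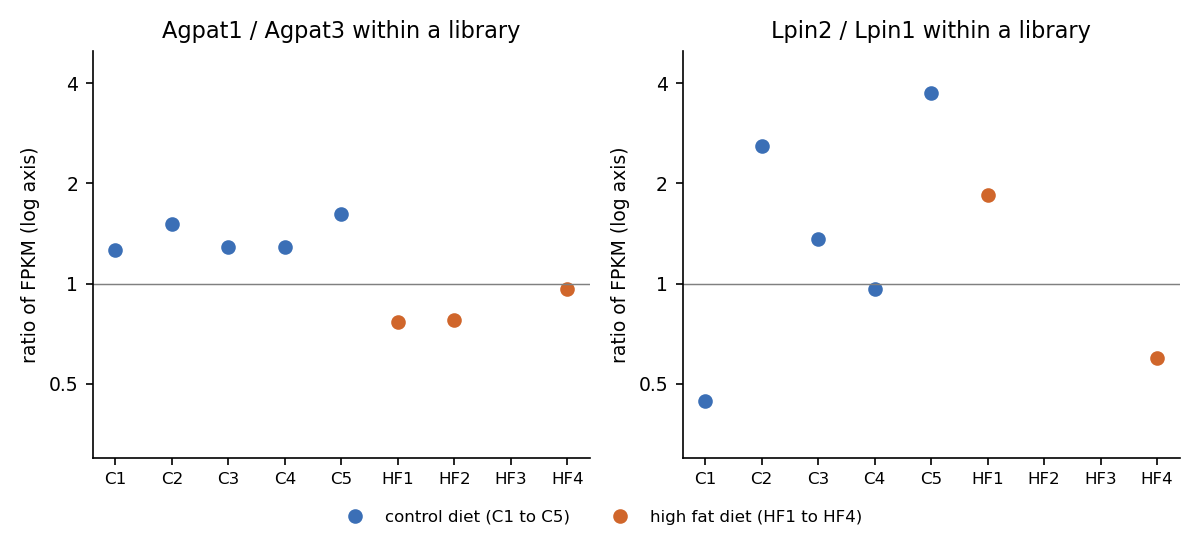
Ratio of FPKM within a library (log axis) for Agpat1 over Agpat3 and Lpin2 over Lpin1, in the libraries that listed both genes. Agpat1 over Agpat3 was 1.26 to 1.62 in the control libraries and 0.764 to 0.963 in 3 high fat libraries, while Lpin2 over Lpin1 spanned 0.445 to 3.72 within the control diet.

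Agpat2, whose loss in humans causes lipodystrophy, was close to the limit of the tables (chromosome 2, 26593057 to 26604417, minus strand). It was listed at 2.13, 1.87 and 1.59 FPKM in control diet 1, 4 and 5 and at 1.51 in high fat diet 1, on the equivalent of 6.52 to 13.1 fragments. Its log2 fold change was -0.58 (SE 0.423, limma adjusted p = 0.220), and quantile normalization turned its sign positive. Agpat1 was 2.40 to 2.86 times Agpat2 in the 4 libraries that listed both.

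Lpin1 (chromosome 12, 16535669 to 16589770, minus strand) was the best measured of the enzymes, on the equivalent of 94.6 to 601 fragments. It was at 9.14, 5.07, 10.9, 6.98 and 7.42 FPKM in control diet 1 to 5 and at 3.67, 4.18, 1.81 and 3.32 FPKM in high fat diet 1 to 4. Every high fat library lay below every control library, a separation that 11.1% of the 7983 tested genes showed in this direction and 0% in the other. Among the 1847 genes listed in all libraries, as Lpin1 was, the share was 5.52%. The means were 7.91 ± 2.22 FPKM (SD, n = 5) and 3.24 ± 1.02 (SD, n = 4), a ratio of 0.410. Even so, Lpin1 did not pass the test (log2 fold change -1.07, SE 0.599, limma adjusted p = 0.129), and its fold change equalled the median of all tested genes, -1.08, to within 0.01.

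Within its own library Lpin1 did not separate by diet. The share of common genes below it was 7.31% to 30.3% on the control diet and 3.95%, 24.5%, 41.1% and 25.5% in high fat diet 1 to 4. High fat diet 1 was the lowest of all 9 libraries and high fat diet 3 the highest. Scaled Lpin1 was 8.02 ± 2.60 (SD, n = 5) against 8.11 ± 3.61 (SD, n = 4), with a log2 fold change of -0.03 (SE 0.366, limma adjusted p = 0.967) and a positive sign under quantile normalization.

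The named genes whose profiles lay nearest to Lpin1 among the 1846 others listed in all libraries were Pcyt2, an enzyme of phosphatidylethanolamine synthesis, and Kcnk1, a potassium channel. Predicted genes, such as those with Gm and Rik symbols, were left out of this ranking. Likeness was the root mean square difference of log2(FPKM + 1), each profile centred on its own mean, over the 9 libraries. It was 0.15 for Pcyt2 and 0.21 for Kcnk1, against a median of 0.64 over all of these genes. Pcyt2 was at 9.87, 6.59, 11.1, 7.04 and 9.19 FPKM in control diet 1 to 5, and 4.42, 5.82, 1.66 and 3.61 FPKM in high fat diet 1 to 4.

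Lpin2 (chromosome 17, 71182560 to 71249817, plus strand) was the most variable enzyme and was called lower on the high fat diet. It was at 4.06, 13.1, 14.8, 6.72 and 27.6 FPKM in control diet 1 to 5. In high fat diet 1 and 4 it was at 6.74 and 1.99 FPKM, and it was unlisted in high fat diet 2 and 3. High fat diet 1 lay just above control diet 4, so the diets overlapped, while the bounds of control diet 5 (24.2 to 31.0) met those of no other library. The log2 fold change was -2.45 (SE 0.62, limma adjusted p = 0.0161). Set against the median over all genes it stood at -1.38, and 1.23% of tested genes had a lower fold change. Lpin2 entered the test through the control diet (5 of 5 libraries against 2 of 4), and its unlisted values were counted as 0. With unlisted genes at 1 FPKM the log2 fold change was -1.95 (limma adjusted p = 0.0410). With no filter on low values Lpin2 did not pass (limma adjusted p = 0.0645).

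Lpin2 was unlisted in libraries whose scale differed widely. At the scale of high fat diet 2, the control median would have stood at 6.91 FPKM and the lowest control value at 1.45, both above the listing limit, and Lpin2 was unlisted there. At the scale of high fat diet 3 these were 1.77 and 0.371. The part of library scale in the unlisted Lpin2 values was not tested. In high fat diet 1 and 4, observed Lpin2 was 0.562 and 0.437 times the scaled control median. With scaled values the log2 fold change was -1.97 (SE 0.746) and did not pass (limma adjusted p = 0.165, where 0% of all genes passed). The call also ended without high fat diet 2 or without high fat diet 3 (limma adjusted p = 0.0701 and 0.0997).

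Lpin2 also spread widely within the control diet, 6.79-fold from the lowest to the highest library. The share of common genes below Lpin2 was 2.06%, 65.7%, 41.2%, 6.82% and 75.3% in control diet 1 to 5, and 17.3% and 8.12% in high fat diet 1 and 4. Lpin2 over Lpin1 was 0.445, 2.58, 1.36, 0.962 and 3.72 in control diet 1 to 5 and 1.84 and 0.598 in high fat diet 1 and 4. Epcam, an epithelial surface marker of the luminal list singled out after its values were seen, was at 8.46, 15.6, 22.6, 12.7 and 36.2 FPKM in control diet 1 to 5, was unlisted in high fat diet 3, and was at 7.25, 1.61 and 3.89 FPKM in the other high fat libraries. Elf5, a transcription factor of the secretory epithelium singled out in the same way, was at 249.9, 69.8, 203, 270.2 and 65.3 FPKM in control diet 1 to 5. Its lowest control values lay in control diet 2 and 5, the control libraries of lowest scale (0.519 and 0.688). In high fat diet 1 to 4 Elf5 was at 142.0, 113.4, 19.3 and 46.4 FPKM. The luminal list was split, as Lalba was also lowest in control diet 2 and 5 (186.2 and 187.2 FPKM), while Krt18 was highest in control diet 5 (289.5 FPKM). Summed over the 8 luminal markers the range was 9567 to 19408 FPKM on the control diet and 4114 to 17587 on the high fat diet. Wap and Csn2 made up most of that sum. The part of these markers in the Lpin2 values was not tested.

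**Figure D3:**
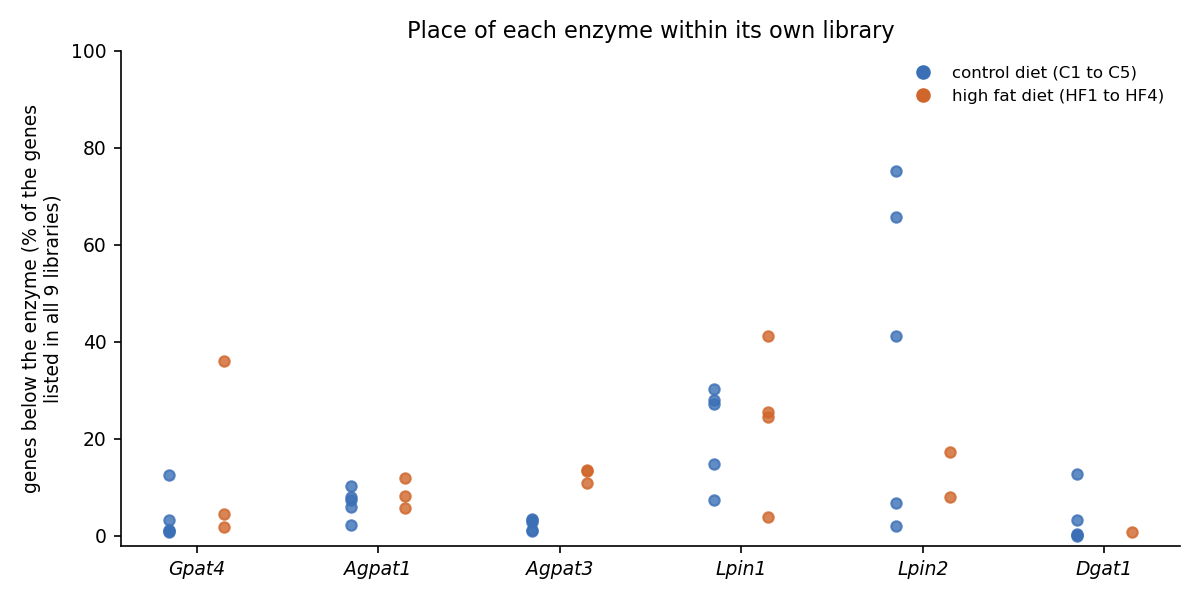
Share of the genes listed in all 9 libraries that lay below each enzyme in the same library (linear axis, percent), for the listed values of 6 enzymes. Agpat3 lay at 10.9% to 13.5% in 3 high fat libraries and at 0.920% to 3.41% in the control libraries, and Lpin2 ran from 2.06% to 75.3% within the control diet.

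The last step was represented by Dgat1 (chromosome 15, 76502015 to 76511951, minus strand), an acyltransferase that joins the third fatty acid to diacylglycerol. Dgat1 was at 2.39, 2.29, 2.22, 1.91 and 4.73 FPKM in control diet 1 to 5 and at 2.20 in high fat diet 1. It was unlisted in high fat diet 2, 3 and 4. Control diet 5 stood above the other control libraries, and high fat diet 1 lay among them. The test called Dgat1 lower with high fat feeding, by a log2 fold change of -1.43 (SE 0.479, limma adjusted p = 0.0357), or -0.35 once the median over all genes is taken off. That call rests on the 3 unlisted values, counted as 0, in a gene that entered the test through the control diet (5 of 5 libraries against 1 of 4). With unlisted genes at 1 FPKM the log2 fold change was -0.68 and did not pass (limma adjusted p = 0.0773). Its values were low, on the equivalent of 7.94 to 28.8 fragments, and 18.9% of tested genes had a lower fold change.

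Control diet 2, whose scale of 0.519 was below that of high fat diet 2, listed Dgat1 at 2.29 FPKM (bounds 0.899 and 3.68). The part of library scale in the unlisted Dgat1 values was not tested. At the scale of high fat diet 2, 3 and 4 the control median would have stood at 1.04, 0.266 and 0.682 FPKM, just above the limit of 1 in the first and below it in the others. With scaled values the log2 fold change was -1.19 (SE 0.459, limma adjusted p = 0.166). Of the 9 libraries, 6 ended the call when left out singly, namely control diet 3 to 5 and high fat diet 2 to 4, with limma adjusted p between 0.0590 and 0.118.

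Dgat2, the structurally unrelated enzyme of the same step (chromosome 7, 99153658 to 99182719, minus strand), was listed in control diet 5 alone, at 1.40 FPKM with bounds of 0.240 and 2.57. In that library Dgat1 was 3.37 times Dgat2. Of the 8 adipocyte markers, control diet 5 listed Fabp4 alone, and Adipoq and Plin1 were unlisted in every library; the part of adipocyte RNA in the Dgat2 value was not tested.

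Of the 9 enzymes, 7 were listed in at least 4 libraries and tested, and limma called 2 of them lower and 0 higher under high fat feeding. In all, 20.8% of the 7983 tested genes were called lower and 0% higher, and nothing particular to the enzymes is read from their count. At an unadjusted p under 0.05 the same 2 of 7 were lower, against 49.5% of all genes lower and 0.0626% higher, and with scaled values again 2 of 7, against 20% and 0.664%. With high fat diet 2 and 3 both left out, limma called 0 genes lower, with 1059 lower at an unadjusted p under 0.05, and 0 of the enzymes.

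**Figure D4:**
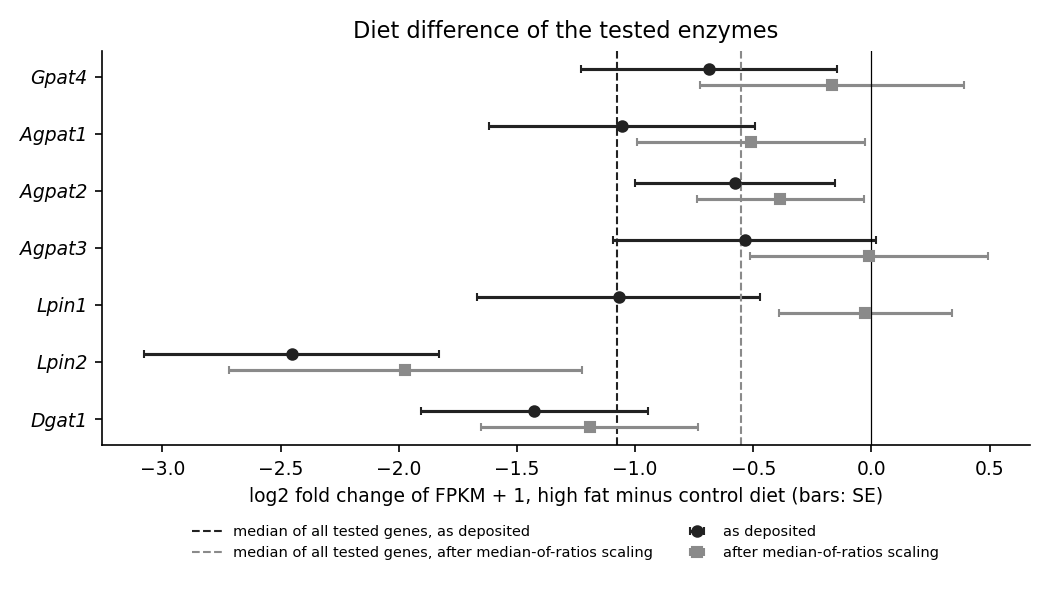
Log2 fold change of FPKM + 1, high fat minus control diet, with its SE, for the 7 tested enzymes as deposited (circles) and after median-of-ratios scaling (squares), with dashed lines at the median of all tested genes. As deposited, Agpat1 and Lpin1 lay at the median of -1.08, and Lpin2 lay farthest below it at -2.45.

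Per transcript length, the order of the enzymes in the control libraries was Lpin2, Lpin1, Agpat1, Agpat3, Gpat4 and Dgat1, followed by Agpat2 and Dgat2. Lpin2 and Lpin1 did not differ beyond their spread, with Lpin2 the higher in 3 of 5 libraries at 13.3 ± 9.16 FPKM (SD, n = 5). Lpin1 was above Agpat1, and Agpat1 above Agpat3, in 5 of 5 libraries. Agpat3, at 3.58 ± 1.33 FPKM, and Gpat4, at 3.40 ± 0.288, were in this order in 3 of 5, and Gpat4 was above Dgat1, at 2.71 ± 1.15, in 4 of 5.

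Summed by step, the lipins made up 41.1% to 67.6% of the enzymes' FPKM on the control diet and the DGAT step 5.18% to 11.8%. In high fat diet 1 the lipins made up 39.0% and the AGPAT step 42.2%. In high fat diet 2 and 4 the AGPAT step was 46.2% and 33.1%, the lipins 37.7% and 37.2%, and the DGAT step had no listed gene. Over all steps the sum was 29.2 to 51.9 FPKM on the control diet and 26.7, 11.1, 1.81 and 14.3 in high fat diet 1 to 4. Each high fat sum lay below each control sum as deposited, with unlisted genes at 0. Divided by the library scale the sums overlapped, at 20.2 to 75.4 on the control diet and 27.1, 19.6, 12.4 and 38.3 in high fat diet 1 to 4.

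**Figure D5:**
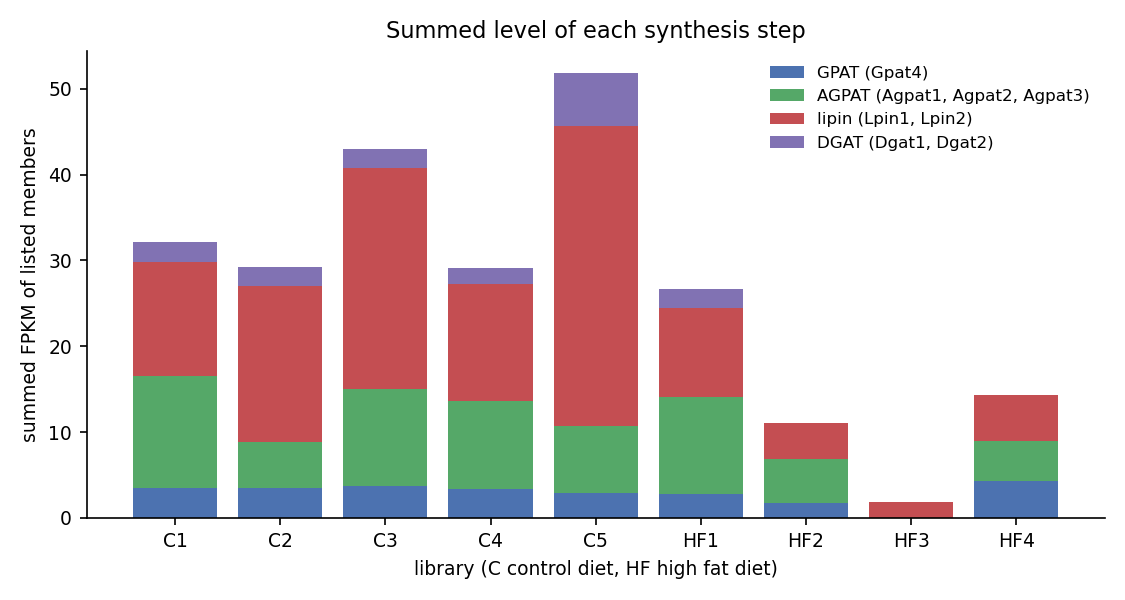
Stacked FPKM of the listed enzymes of each step in each library (linear axis from 0, unlisted genes as 0). The sums were 29.2 to 51.9 in the control libraries and 1.81 to 26.7 in the high fat libraries, and the lipin share reached 67.6% in control diet 5 and 100% in high fat diet 3, where Lpin1 alone was listed.

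Genes beside the pathway were read from lists, given as counts and medians without a set test. Of 16 paralogs and neighbours of the synthesis steps, 7 were listed anywhere, 6 were tested and 0 passed, with a median log2 fold change of -1.01 against -1.08 over all genes. Agpat5, Lclat1, Lpin3, Mogat1, Mogat2, Plpp1 and Plpp3 were unlisted in every library, and Agpat4 was listed in 3 control libraries at 1.47 to 2.47 FPKM. Gpd1, which makes glycerol 3-phosphate, was the most abundant of them with 10.6 to 37.7 FPKM in control libraries and 17.7, 33.5, 3.46 and 5.76 FPKM in high fat diet 1 to 4 (limma adjusted p = 0.224, positive in sign with scaled values). Ctdnep1, the phosphatase that activates lipins, held 1.47 to 5.63 FPKM in control libraries and 1.91 and 3.33 in high fat diet 1 and 4 (limma adjusted p = 0.0768). Its partner Cnep1r1 held 1.08 to 1.93 FPKM in control libraries and 1.34 in high fat diet 1, and the lipid phosphate phosphatase Plpp2 at 2.74 to 7.20 and 1.73 to 3.46 in 3 high fat libraries (limma adjusted p = 0.0728 and 0.116).

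Of 22 genes that lead phosphatidate and diacylglycerol into phospholipids, 18 were listed, 14 were tested, 3 were called lower and 11 did not pass, with a median log2 fold change of -1.05. This count is near the 20.8% of all tested genes called lower and is no result about the list. Those called were Chkb, a choline kinase, Pcyt1a, the rate-limiting enzyme of phosphatidylcholine synthesis, and Lpcat3, a lysophospholipid acyltransferase. Chkb was at 2.92, 4.08, 6.16, 2.37 and 13.8 FPKM in control diet 1 to 5, 2.48 FPKM in high fat diet 1 and unlisted in the other high fat libraries (log2 fold change -2.11, SE 0.534, limma adjusted p = 0.0161). Pcyt1a held 1.28 to 2.23 FPKM in control libraries and 1.23 in high fat diet 1, and Lpcat3 at 1.19 to 2.17 in 4 control libraries and 0 high fat libraries (limma adjusted p = 0.0430 and 0.0498). All 3 entered the test through the control diet, and their calls rest on unlisted high fat values counted as 0. With unlisted genes at 1 FPKM the limma adjusted p was 0.0582, 0.0700 and 0.128, and with no filter on low values 0 of the 3 passed. Of these 3, 0 passed with scaled values, without high fat diet 2, without high fat diet 3 or without high fat diet 4, and leaving out control diet 1, 3, 4 or 5 left 1 of the list called. Leaving out control diet 2 or high fat diet 1 raised its count to 6 and 11, where 28.8% and 68.9% of all tested genes were called lower. Chpt1, which joins diacylglycerol to phosphocholine and competes with DGAT for it, was the most abundant, with 18.6 to 84.8 FPKM in control libraries and 41.3, 11.7, 4.41 and 21.8 in high fat diet 1 to 4 (limma adjusted p = 0.141).

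Of 9 breakdown genes, 8 were listed, 6 were tested and 0 passed (median log2 fold change -1.07). G0s2, an inhibitor of adipose triglyceride lipase, held 51.9 to 256 FPKM in control libraries and 22.0 to 165 in high fat libraries, and Abhd5, the activator of that lipase, at 36.1 to 155 and 4.45 to 76.2 (limma adjusted p = 0.607 and 0.108). G0s2 had a negative fold change as deposited, which turned positive with scaled values, with quantile normalization and without high fat diet 3. Lipe, hormone-sensitive lipase, and Lipa, the lysosomal acid lipase, held 1.70 to 3.51 and 2.29 to 4.53 FPKM in control libraries (limma adjusted p = 0.106 and 0.0758). Leaving out high fat diet 1, where 68.9% of all genes were called lower, brought 4 of the 6 breakdown genes and 4 of the 6 synthesis paralogs past the threshold. Leaving out control diet 2, where 28.8% were, brought 1 paralog.

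Of 11 droplet genes, 6 were listed and tested and 0 passed, with a median log2 fold change of -0.79. Plin2, the droplet coat protein, was the most abundant with 159 to 433 FPKM in control libraries and 100.2 to 298 in high fat libraries (limma adjusted p = 0.535). Bscl2, which encodes the droplet assembly protein seipin, was at 3.39 to 8.04 and 1.41 to 6.42 FPKM (limma adjusted p = 0.285), and Btn1a1, a globule membrane protein, at 13.8 to 24.7 and 5.08 to 20.0 (limma adjusted p = 0.273). Plin3, another droplet coat protein, held 4.26 to 11.8 FPKM in control libraries and 1.74 to 5.28 in 3 high fat libraries (limma adjusted p = 0.0543). With scaled values the sign was positive in 5 of the 6, Plin3 being the exception, with 0 past the threshold. These 5 were listed in all 9 libraries, and the scaling centres such genes near 0 (median log2 fold change 0.013). The median of -0.55 over all tested genes on that scale includes genes with unlisted values counted as 0, so it is no measure for these 5. Leaving out control diet 2 or high fat diet 1 brought 1 droplet gene past it as lower.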

How the data were processed

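RNA of the milk fat layer was extracted and sequenced from 9 dams with a stranded total RNA kit, per the labels' protocols. The authors deposited FPKM per gene with lower and upper FPKM bounds, 1 table per library, per the file headers. Trimmomatic, TopHat, Bowtie2, Cufflinks, DESeq2, HTSeq and FastQC appear in the submitters' processing notes, without versions, and the genome build is not given in the sources used here. Tables were tied to dams by the run number shared by table name and sample description. Every table starts just above 1 FPKM. Of 11206 gene identifiers, 11165 were in GENCODE M21 (GRCm38) and 9309 had identical bounds, so coordinates are read as GRCm38. For 6 repeated identifiers the highest FPKM was kept.

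Genes that reached 1 FPKM in 4 or more libraries were tested with limma 3.58.1 (R 4.3.3) on log2(FPKM + 1) with a mean-variance trend, unlisted genes at 0 and diet as the only term. P-values were adjusted by Benjamini-Hochberg over all 7983 genes, with a threshold of 0.05, and the script was tested on simulated data. Fold changes on this scale understate the change between listed values at low FPKM. Counting unlisted values as 0 can overstate it. With unlisted genes at 1 FPKM the log2 fold change of Dgat1 went from -1.43 to -0.68 and that of Lpin2 from -2.45 to -1.95. FPKM keeps no total count; the bounds lie 2 SDs from the value, and the squared ratio of FPKM to that SD is given as equivalent fragments. Size factors were medians of ratios over the 1847 genes listed in all libraries.

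The 9 genes and the lists were chosen with earlier results of these data known. Named beside them were, from each list, the most abundant member and up to 3 with the smallest p, and for genes listed in all libraries the nearest 2 profiles of named genes. Alternatives changed the pseudocount, filter, scaling, unlisted value, variance model, library weights, replicate block and libraries used. Promoter sequences are from RefSeq (GRCm38.p6). With 5 and 4 dams, p-values rest on the spread between these dams, drawn by limma towards a variance trend over all tested genes. They thus do not measure the spread of the named gene alone.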

Additional observations from a re-analysis of the deposited data

Results flagged for a closer look

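Dgat1 in control diet 5, at 4.73 FPKM, stood apart from the other control libraries, which held 1.91 to 2.39. The gap to the nearest of them was 0.832 of the range of the group, above the 95% critical value of Dixon's test for 5 samples. Chance flags about 1 in 20 groups, and 29 groups of a gene and a diet were examined here, of which 1 stood apart. Without control diet 5 the log2 fold change of Dgat1 was -1.26 (limma adjusted p = 0.0795).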

How the results depend on the processing

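Against 1662 genes and 2 enzymes called lower, the counts were 13 and 0 with no filter, 15 and 0 over genes listed in all 9 libraries, 0 and 0 with median-of-ratios size factors (1600 lower and 53 higher by unadjusted p under 0.05), 0 and 0 with quantile normalization (464 and 163), 87 and 1 with unlisted genes at 1 FPKM, 6714 and 4 with array weights, 35 and 0 with the replicate block, which leaves out control diet 5 for want of a partner, and 0 and 0 without high fat diet 2 and 3 together (1059 and 12). A pseudocount of 5 left 1 enzyme called. The scaled test limited to the 1847 common genes, added after seeing the data, gave 0 and 0 (96 and 80 at an unadjusted p under 0.05). Genes called higher numbered 0, and 13 with array weights. Leaving out 1 library at a time gave 17 to 5259 genes lower, 0 to 2 higher, and 0 to 3 enzymes lower. The genes lower were 986, 182, 423 and 333 without control diet 1, 3, 4 and 5, and 5259, 72, 17 and 157 without high fat diet 1 to 4. The cause was not tested.

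Deviations of libraries with the same replicate number, taken without scaling, correlated at 0.142, -0.285, 0.0431 and -0.0882. So few values do not show that the numbers pair the dams and cannot exclude it, and the block is given only as a count. Under it the log2 fold changes of Lpin2 and Dgat1 were -2.14 and -1.26. Over 19 settings each, that of Lpin2 was negative in 19 and called in 12, and that of Dgat1 negative in 19 and called in 6.

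Signs turned positive under quantile normalization for Gpat4 (0.20), Agpat2 (0.16), Agpat3 (0.34), Lpin1 (0.12), Gpd1 (0.32), G0s2 (0.86), Btn1a1 (0.46), Bscl2 (0.48) and Plin2 (0.79). They did so with size factors, on both gene sets, for Gpd1 (0.16), G0s2 (0.77), Btn1a1 (0.32), Bscl2 (0.31) and Plin2 (0.67). Without high fat diet 2 and 3 together they did so for Gpat4 (0.024), Agpat3 (0.094) and G0s2 (0.16), and without high fat diet 3 for G0s2 (0.12, from -0.83 without high fat diet 1). Ratios within a library do not change with scaling. The median listed gene rested on the fewest equivalent fragments in high fat diet 3 and 2 (7.64 and 13.0), at relative depths of 0.930 and 0.823.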

Other observations

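Hilpda, a hypoxia-inducible inhibitor of adipose triglyceride lipase singled out after its values were seen, was at 5.98 FPKM in high fat diet 1, at 1.11, 1.78 and 2.39 in control diet 2, 4 and 5, and unlisted in the other libraries (limma adjusted p = 0.741). The neutrophil genes S100a8 and S100a9, singled out of the 9 macrophage and neutrophil markers in the same way, were at 40.9 and 48.3 FPKM in high fat diet 1. They were at most at 14.3 and 2.76 in the control libraries and unlisted in high fat diet 2, 3 and 4. Of the other markers, Csf1r, Adgre1, Mpo and Elane were unlisted in every library. In high fat diet 1 Cd14 was at 33.7 FPKM, against at most 28.7 in the control libraries, Cd68 at 1.54, against at most 4.33, and Lyz2 at 1.79, against at most 1.30. The highest Lyz2 value lay in high fat diet 3, at 22.4 FPKM, so these markers did not all peak in high fat diet 1. High fat diet 1 was also the high fat library that listed the most of the 9 synthesis enzymes, 7, against 4, 1 and 5 in high fat diet 2, 3 and 4.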
